A study of Mus musculus with 4 samples.

Results

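The forkhead family was examined in mouse embryonic stem cells (ESCs) as the set of protein-coding autosomal genes of GENCODE mouse release 21 with a symbol from Foxa to Foxs followed by a number. This rule took 41 of 20807 protein-coding autosomal genes, and it used no measured value. Open chromatin had been mapped by ATAC-seq, in which a transposase cuts accessible DNA and adds sequencing adapters, so that a peak marks a stretch with many such cuts. The cells were E14 ESCs, an established mouse line, grown in serum with LIF. They were infected with a pLKO lentivirus that carried a hairpin against GFP (shGFP, 1 library) or against luciferase (shLuc, 3 libraries, replicates 1, 2 and 3), selected in puromycin at 2 µg/ml for 2 days and taken after a further 2 days, with about 50000 cells in an assay. Neither target is a mouse gene, so all 4 libraries came from control cells that shared the infection and the selection, and nothing states that the shLuc libraries came from separate cultures.

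Forkhead factors bind DNA through a winged-helix domain of common fold and act in most tissues of the embryo and the adult. FoxA factors are pioneer factors that can engage closed chromatin, FoxO factors are moved out of the nucleus by AKT when insulin or growth factors signal, and FoxP factors mostly repress. In ESCs, Foxd3 is needed to keep the cells undifferentiated, Foxo1 acts on pluripotency genes, Foxo3 serves stress resistance and Foxp1 has a splice form found in stem cells, so these 4 genes are called ESC-used here. Another 8 genes are used in many cell types (Foxj2, Foxj3, Foxk1, Foxk2, Foxm1, Foxn2, Foxn3 and Foxp4) and are called broadly used. The remaining 29 act in particular lineages.

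A promoter peak was a listed peak with an edge no further than 1 kb from an annotated transcript start of the gene, or over it. The lists give positions only, so the width of a peak is its only value, and a gene without a listed peak is not shown to be closed. The 4 lists held 17860 to 41943 peaks with median widths of 603 to 663 bp. Replicate 1 of shLuc was the shortest list, and the lists carry no depth. The study's own sample table gives the fewest total reads to the same library. In the same libraries, 2 of 10 pluripotency genes (Zfp42 and Tfcp2l1) had a promoter peak in all 4 libraries. Over all protein-coding autosomal genes this share was 44.0%. Utf1 had a promoter peak in 3 libraries, and Esrrb and Klf4 each had one in 2. Pou5f1, Nanog and Sox2 had none in any, though each had a listed peak within 20 kb in at least 3 libraries, and no pluripotency gene lacked a peak within 20 kb in all 4. Of the markers of other cell types, promoter peaks were in all 4 libraries at 3 of 6 fibroblast or mesenchyme genes (Col1a1, Thy1 and Twist1), at 1 of 4 endoderm genes (Sox17), at 1 of 3 neural genes (Neurog2) and at 0 of 3 mesoderm genes. These lists are short, so no contrast between them or with all genes is drawn.

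The stretches just upstream of the starts show the DNA that the results turn on. Each runs 5′ to 3′ on the strand of its gene, up to 200 bases before the start as placed by RefSeq on GRCm38.p6 and clear of annotated exons, with every CG dinucleotide in capitals. The ESC-used genes are shown first. No listed peak touched the Foxd3 stretch at chr4:99656099-99656298, peaks of shGFP and shLuc replicate 2 touched that of Foxo1 at chr3:52268136-52268335, and only the shGFP peak touched that of Foxo3 at chr10:42276756-42276945. Foxp1 is shown at a pair of starts where different libraries had peaks, chr6:99028314-99028513 and chr6:99266533-99266732.
Foxd3: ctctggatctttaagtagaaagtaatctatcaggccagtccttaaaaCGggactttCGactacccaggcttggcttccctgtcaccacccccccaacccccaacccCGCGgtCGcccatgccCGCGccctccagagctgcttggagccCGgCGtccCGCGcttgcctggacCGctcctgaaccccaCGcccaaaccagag
Foxo1: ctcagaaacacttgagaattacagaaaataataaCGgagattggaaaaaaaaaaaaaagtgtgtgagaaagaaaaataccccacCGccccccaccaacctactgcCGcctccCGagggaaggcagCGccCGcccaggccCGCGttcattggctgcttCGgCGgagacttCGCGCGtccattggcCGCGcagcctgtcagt
Foxo3: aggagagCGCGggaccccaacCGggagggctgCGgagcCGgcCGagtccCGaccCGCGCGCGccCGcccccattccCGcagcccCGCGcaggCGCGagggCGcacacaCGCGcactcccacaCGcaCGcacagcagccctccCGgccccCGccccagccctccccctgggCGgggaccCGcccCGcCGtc
Foxp1, first start: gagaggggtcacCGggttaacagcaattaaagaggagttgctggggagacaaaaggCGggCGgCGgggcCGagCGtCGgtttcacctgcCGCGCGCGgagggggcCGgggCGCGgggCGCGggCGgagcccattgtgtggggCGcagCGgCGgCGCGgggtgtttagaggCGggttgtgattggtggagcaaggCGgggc
Foxp1, second start: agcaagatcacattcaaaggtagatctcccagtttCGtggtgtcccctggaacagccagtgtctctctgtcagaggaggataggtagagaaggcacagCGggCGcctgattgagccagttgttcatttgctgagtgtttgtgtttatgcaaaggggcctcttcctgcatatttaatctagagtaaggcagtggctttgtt

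The second set contrasts lineage genes with and without a promoter peak. Foxd1 (chr13:98354042-98354241) and Foxi3 (chr6:70956356-70956530) had a peak over the stretch in all 4 libraries. Foxa1 (chr12:57546122-57546321), Foxc1 (chr13:31806433-31806632) and Foxb2 (chr19:16873831-16874030) had none in any library.
Foxd1: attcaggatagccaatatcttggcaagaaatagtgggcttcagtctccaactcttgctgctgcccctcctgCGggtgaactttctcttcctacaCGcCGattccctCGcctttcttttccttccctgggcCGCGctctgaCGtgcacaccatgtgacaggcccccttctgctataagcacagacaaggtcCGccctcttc
Foxi3: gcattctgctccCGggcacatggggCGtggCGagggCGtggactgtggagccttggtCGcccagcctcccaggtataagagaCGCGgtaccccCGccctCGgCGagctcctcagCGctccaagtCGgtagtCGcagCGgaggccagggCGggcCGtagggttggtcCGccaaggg
Foxa1: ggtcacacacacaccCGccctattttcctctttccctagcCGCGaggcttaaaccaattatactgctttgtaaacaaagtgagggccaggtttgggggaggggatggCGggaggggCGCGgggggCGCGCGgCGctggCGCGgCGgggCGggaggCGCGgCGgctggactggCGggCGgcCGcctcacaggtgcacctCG
Foxc1: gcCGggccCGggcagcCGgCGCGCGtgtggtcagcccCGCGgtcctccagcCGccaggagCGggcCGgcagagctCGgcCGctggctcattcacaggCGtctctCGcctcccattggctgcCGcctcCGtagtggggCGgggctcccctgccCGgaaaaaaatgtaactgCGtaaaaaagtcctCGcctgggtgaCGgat
Foxb2: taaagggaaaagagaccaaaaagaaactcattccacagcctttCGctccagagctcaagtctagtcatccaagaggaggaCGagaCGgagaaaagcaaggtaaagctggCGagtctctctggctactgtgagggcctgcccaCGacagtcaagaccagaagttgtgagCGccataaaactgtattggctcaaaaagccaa

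The number of CG dinucleotides did not follow this contrast in these few stretches. They are examples only. Over all forkhead genes CpG content was lower at those with no promoter peak, as given below. There were 8 CG dinucleotides in the Foxd1 stretch and 17 in that of Foxi3, against 21 in Foxa1, 22 in Foxc1 and 6 in Foxb2. Among the ESC-used genes the count was 13 in Foxd3, 15 in Foxo1, 28 in Foxo3 and 24 at the first Foxp1 start. At the second Foxp1 start it was 3, although both Foxp1 starts had a peak in 3 libraries.

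Of the 41 forkhead genes, 13 (31.7%) had a promoter peak in all 4 libraries, against 44.0% of all protein-coding autosomal genes. A further 18 genes (43.9%) had one in 1 to 3 libraries, against 22.0% of all genes, and 10 (24.4%) had one in no library, against 34.0%. So 31 genes had a promoter peak in at least 1 library. Forkhead genes were above the background in the middle class and below it at both ends. These are shares of genes, which are not replicates, so no test was made.

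The count differed by library. There was a promoter peak at 27 forkhead genes in shGFP, at 17 in shLuc replicate 1, at 26 in replicate 2 and at 22 in replicate 3. As shares these were 65.9%, 41.5%, 63.4% and 53.7%, against 61.9%, 48.4%, 61.5% and 56.3% of all genes. With 41 genes, these shares lay near the background, and the largest gap was in shLuc replicate 1, below it. Of the 18 genes in the middle class, 14 lacked the peak in shLuc replicate 1 and 5 lacked it there alone. Over all genes the middle class held 4578. Most of these also lacked the peak in shLuc replicate 1, since 10068 genes had one there and 9150 of them had it in all 4. The lack in that library is thus not particular to forkhead genes. Without that library, the forkhead genes with a peak in each of the other 3 rose from 13 to 18 of 41 (43.9%). Over all genes the rise was from 9150 to 11165 (53.7%). No forkhead gene had a promoter peak in every shLuc library but not in shGFP. No exact share over all genes was computed for this count, for the 14 or for the 5.

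**Figure D1:**
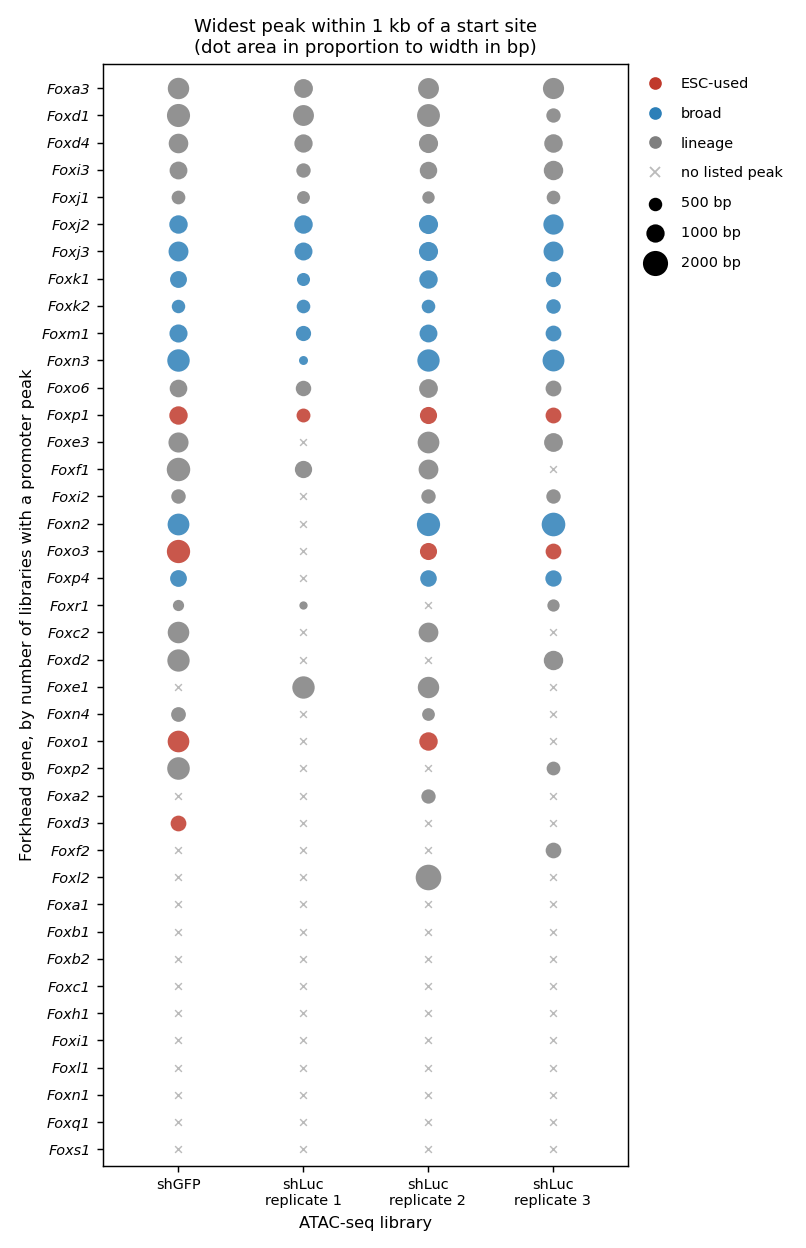
Each row is 1 forkhead gene named here and each column 1 ATAC-seq library. A dot has an area in proportion to the width in bp of the widest peak within 1 kb of a start, a cross marks no listed peak, and colour gives the role. The top 13 rows have a dot in all 4 columns, the bottom 10 have none, and shLuc replicate 1 has the fewest dots.

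By role, 1 of the 4 ESC-used genes, 6 of the 8 broadly used genes and 6 of the 29 lineage genes had a promoter peak in all 4 libraries (25.0%, 75.0% and 20.7%). All 8 broadly used genes were rich in CG dinucleotides (as defined below) and had 2 or more starts. Over all such genes the share was 72.0%, near that of the broadly used genes. Without shLuc replicate 1 the ESC-used count was 2, Foxp1 and Foxo3. All 10 genes with no promoter peak were lineage genes, 34.5% of that group, which is near the 34.0% of all genes. In shGFP the peak was present at 4 of 4 ESC-used, 8 of 8 broadly used and 15 of 29 lineage genes. In shLuc replicates 1, 2 and 3 it was present at 1, 3 and 2 of the ESC-used genes, at 6, 8 and 8 of the broadly used genes and at 10, 15 and 12 of the lineage genes. The broadly used genes had the highest share in each shLuc library, whereas the ESC-used genes were below the lineage share in replicate 1 and above it in the other libraries.

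**Figure D2:**
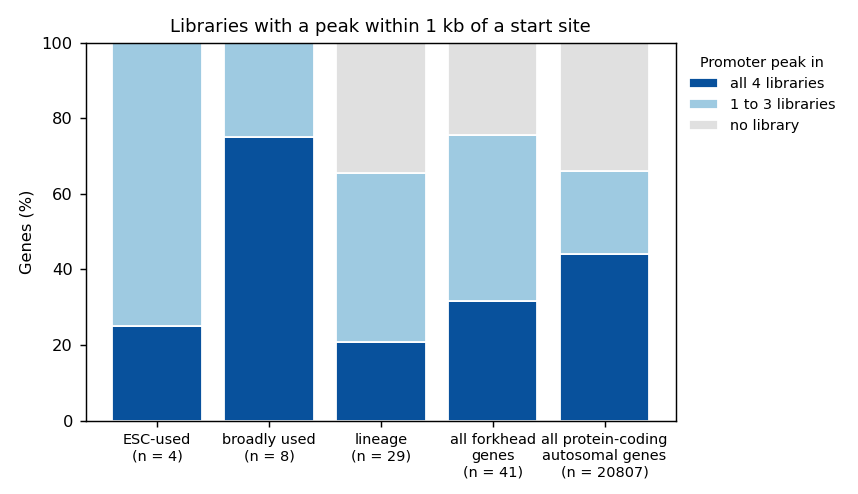
Stacked bars give the percentage of genes with a peak within 1 kb of a start in all 4, in 1 to 3 or in no library, for forkhead genes by role and for all protein-coding autosomal genes, with n genes under each bar. The dark part is 75.0% for broadly used and 20.7% for lineage genes, against 44.0% for all genes, and the grey part is absent from the ESC-used and broadly used bars. For all genes rich in CG dinucleotides with 2 or more starts, as all 8 broadly used genes are, the share is 72.0% (not drawn).

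The ESC-used genes came next. Foxd3, a repressor and pioneer factor on the plus strand of chromosome 4 (99656299-99658622, a single exon), had a promoter peak in shGFP only, 914 bp wide. It began 837 bp downstream of the start, and 896 bp of it lay over the coding sequence. The 3 shLuc libraries had no peak within 1 kb of the Foxd3 start. Within 20 kb of the start there were 5 peaks in shGFP, this one included, 0 in shLuc replicate 1, 4 in replicate 2 and 2 in replicate 3.

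An upstream and a downstream Foxd3 site were listed in the same 3 libraries, all but shLuc replicate 1. The upstream site ended 13983 bp before the start in shGFP, 13937 bp in shLuc replicate 2 and 13983 bp in replicate 3, with widths of 596, 637 and 470 bp, in intergenic DNA. The downstream site began 13900, 13895 and 13910 bp after the start and was 340, 305 and 355 bp wide, within the long non-coding locus Gm12682. Both sites were thus listed in 3 libraries, against 1 for the peak near the start. The central 240 bases of the upstream site, chr4:99641962-99642201 on the plus strand, hold a single CG dinucleotide (in capitals) and 36.7% G and C, against 62.5% in the upstream stretch of the same gene.
Foxd3 upstream site: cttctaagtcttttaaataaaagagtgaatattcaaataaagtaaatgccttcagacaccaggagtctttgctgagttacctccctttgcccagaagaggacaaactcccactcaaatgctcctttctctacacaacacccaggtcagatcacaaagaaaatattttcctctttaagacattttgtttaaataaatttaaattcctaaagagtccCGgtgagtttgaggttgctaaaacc

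Foxo1, a FoxO factor held out of the nucleus by AKT, lies on the plus strand of chromosome 3 (52268336-52353221). Its promoter peak was 1728 bp wide in shGFP and 1252 bp in shLuc replicate 2, covered the start in both, and was not listed in shLuc replicates 1 and 3. An intergenic site about 14 kb upstream was listed in 3 libraries, with widths of 566 bp in shGFP, 993 bp in shLuc replicate 2 and 782 bp in replicate 3. Replicate 3 therefore had the distal peak of Foxo1 without the promoter peak, and replicate 1 had neither.

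Foxo3, the FoxO factor of stress resistance and quiescence, lies on the minus strand of chromosome 10 (42181841-42276755). Its promoter peak was 1995 bp wide in shGFP, 1076 bp in shLuc replicate 2 and 916 bp in replicate 3, and was not listed in replicate 1. Only the shGFP peak covered the start. The shLuc peaks ended 630 and 775 bp upstream of it, so the start itself lay outside any listed shLuc peak, and no other peak lay within 20 kb of a Foxo3 start in any library.

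Foxp1, a repressor with 22 annotated starts on the minus strand of chromosome 6 (98925338-99522721), was the ESC-used gene with a promoter peak in all 4 libraries. Its widest promoter peak was 1246 bp in shGFP and 712, 1081 and 924 bp in shLuc replicates 1, 2 and 3 (mean 906 ± 185, SD, n = 3). The shGFP width was above all 3 shLuc widths, by 340.3 bp over their mean. No single start had a peak in every library. The start at position 99028313 had one in shGFP and shLuc replicates 1 and 2 (1246, 712 and 1081 bp), and that at 99266515 in shGFP and shLuc replicates 2 and 3 (949, 957 and 924 bp). With the same start asked for in all libraries, a setting chosen after the values were seen, 0 of the 4 ESC-used genes and 12 of the 41 forkhead genes (29.3%) had a promoter peak in all 4, against 43.6% of all genes.

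**Figure D3:**
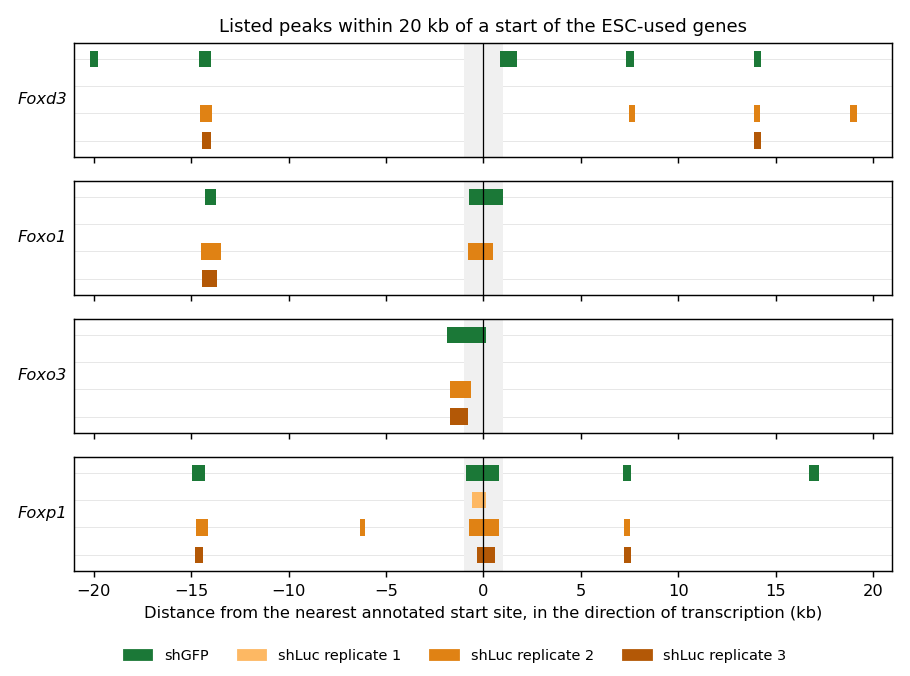
Bars mark every listed peak within 20 kb of a start of Foxd3, Foxo1, Foxo3 and Foxp1, by distance in kb from the nearest annotated start of the gene in the direction of transcription (0 is the start, grey the window of 1 kb each side), with 1 row for each library. For Foxp1, peaks at several of its 22 starts fall on the same axis. In shLuc replicate 1 the only bar is at a Foxp1 start, while the Foxd3 sites on both flanks recur in the other 3 libraries.

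Next were the broadly used genes. Foxk1 and Foxk2 are factors of metabolism and autophagy that bind BAP1. The Foxk1 promoter peak was 1048 bp wide in shGFP and 627, 1249 and 866 bp in shLuc (mean 914 ± 314, SD, n = 3). That of Foxk2 was 667 bp in shGFP and 683, 680 and 780 bp in shLuc (mean 714 ± 56.9, SD, n = 3). The shGFP width was inside the shLuc range at Foxk1 and just below it at Foxk2.

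Foxj2 and Foxj3 are widely expressed activators. The Foxj2 peak was 1249 bp in shGFP and 1257, 1345 and 1512 bp in shLuc (mean 1371 ± 129.5, SD, n = 3). A second Foxj2 start had a peak of 825 bp in shGFP, 768 bp in shLuc replicate 2 and 772 bp in replicate 3. For Foxj3 the width was 1458 bp in shGFP and 1185, 1340 and 1458 bp in shLuc (mean 1328 ± 137, SD, n = 3). Foxj2 and Foxk2 were the 2 genes whose shGFP peak was narrower than all shLuc peaks, each by less than the shLuc SD.

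Foxm1, an activator of genes of the G2 and M phases, had a peak of 1204 bp in shGFP and 851, 1174 and 917 bp in shLuc (mean 981 ± 171, SD, n = 3). Its start lies 56 bp from that of Rhno1 on the other strand, and 2 of the 4 peaks were centred nearer to Rhno1. Foxn3, a checkpoint repressor with 14 starts on the minus strand of chromosome 12, had widths of 1853 bp in shGFP and 296, 1832 and 1760 bp in shLuc (mean 1296 ± 867, SD, n = 3). The narrow peak in shLuc replicate 1 was at another start. A group of 4 close starts, from position 99563508 to 99563582, had a peak in all 4 libraries, of 613 bp in shGFP and 296, 608 and 617 bp in shLuc, whereas the wide peaks at position 99393072 were in shGFP and shLuc replicates 2 and 3 only.

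Foxn2 and Foxp4 completed this group, each with a promoter peak in all libraries but shLuc replicate 1. For Foxn2, a widely expressed FoxN factor, the width was 1747 bp in shGFP and 1983 and 2057 bp in shLuc replicates 2 and 3. For Foxp4, a FoxP repressor, it was 1037 bp in shGFP and 1012 and 980 bp in those replicates. Hence all 8 broadly used genes had a promoter peak in each of the 3 longer lists.

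Among the lineage genes, 6 had a promoter peak in all 4 libraries. Foxd1, a factor of the kidney stroma, had a peak of 1965 bp in shGFP and 1604, 1919 and 758 bp in shLuc (mean 1427 ± 600.4, SD, n = 3). Foxd4, expressed in early neural ectoderm, had one of 1412 bp in shGFP and 1231, 1348 and 1263 bp in shLuc (mean 1281 ± 60.5, SD, n = 3). Both are single-exon genes, and at Foxd4 the peak never covered the start. It began 300 bp downstream of it in shGFP and 409, 300 and 537 bp downstream in shLuc, and 1332, 1231, 1285 and 1158 bp of it lay over the coding sequence.

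Foxi3, a factor of the ectodermal placodes, had a peak of 1170 bp in shGFP and 759, 1121 and 1387 bp in shLuc (mean 1089 ± 315, SD, n = 3). Foxj1, the master factor of motile cilia, had the narrowest of these peaks, 693 bp in shGFP and 608, 564 and 683 bp in shLuc (mean 618 ± 60.2, SD, n = 3). At Foxo6, the brain FoxO factor, it was 1145 bp in shGFP and 879, 1295 and 922 bp in shLuc (mean 1032 ± 229, SD, n = 3). The shGFP width lay inside the shLuc range at Foxi3 and Foxo6 and above it at Foxj1, Foxd1 and Foxd4.

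Foxa3, a factor of the liver and endoderm, had a peak of 1688 bp in shGFP and 1307, 1606 and 1646 bp in shLuc (mean 1519.7 ± 185, SD, n = 3). Its start lies 839 bp from that of Sympk on the other strand, and all 4 peaks were centred nearer to the Sympk start. Leaving out peaks centred nearer another protein-coding gene, which was chosen after the values were seen, left 11 forkhead genes with a promoter peak in all 4 libraries, 5 of them lineage genes. Over all genes this left 37.4%. The Foxj3 start lies 132 bp from that of Frg2f1 on the other strand, although all 4 Foxj3 promoter peaks were centred nearer to Foxj3. The peaks at Foxa3, Foxm1 and Foxj3 thus lie near starts of both genes of each pair, and width alone does not assign them.

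Further lineage genes had the peak in 3 libraries. Foxe3, a lens factor, and Foxi2, an ectoderm factor, lacked it in shLuc replicate 1, with widths of 1485 bp in shGFP and 1740 and 1302 bp in replicates 2 and 3 for Foxe3, and 770, 762 and 764 bp for Foxi2. Foxf1, of lung and gut mesenchyme, lacked it in replicate 3 and had 2027 bp in shGFP and 1097 and 1443 bp in shLuc replicates 1 and 2. Foxr1, a germ cell gene, had narrow peaks of 462 bp in shGFP and 252 and 556 bp in shLuc replicates 1 and 3, and none in replicate 2.

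In 2 libraries there was a promoter peak at 5 lineage genes, besides Foxo1. Foxc2, of mesoderm and lymphatic vessels, had 1710 bp in shGFP and 1437 bp in shLuc replicate 2, and Foxn4, of the retina, had 801 and 598 bp in the same libraries. Foxd2, of the kidney and paraxial mesoderm, had 1832 bp in shGFP and 1386 bp in shLuc replicate 3, and Foxp2, the FoxP repressor of brain and lung, had 1876 and 697 bp there. Foxe1, the thyroid factor, was the exception, with 1843 and 1684 bp in shLuc replicates 1 and 2 and no promoter peak in shGFP.

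The last 3 lineage genes with any promoter peak had it in a single library. Foxa2, the pioneer factor of endoderm and node, had 756 bp in shLuc replicate 2, and Foxl2, the ovary factor, had 2411 bp in the same library. Foxf2, of palate and gut mesenchyme, had 905 bp in shLuc replicate 3. With Foxe1, these were the 4 forkhead genes with a promoter peak in a shLuc library and none in shGFP. A peak in 1 of 4 control libraries has no second library behind it, and this holds for the Foxd3 promoter peak as well.

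The 10 genes without a promoter peak were all lineage genes. Foxa1, a pioneer factor of endoderm, breast and prostate, Foxb1 and Foxb2 of the nervous system, and Foxi1, of ion-transporting cells, had no peak within 20 kb of a start in any library. Over the family 4 of 41 genes were in this state, a share below the 13.1% of all genes. At the other end, 21 of 41 forkhead genes had a peak within 20 kb in all 4 libraries, also below the 63.1% of all genes. Without shLuc replicate 1 the latter count was 32 (78.0%), against 75.8% of all genes in the same 3 libraries. With the promoter window widened to 5 kb, 5 forkhead genes (12.2%) had no peak in it in any library, against 26.1% of all genes.

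For 6 genes the nearest peaks lay outside the promoter window. At Foxq1, a hair and epithelium factor of 1 exon, peaks began 1694 bp downstream of the start in shGFP and 1564, 2976 and 2700 bp downstream in shLuc, and their widths were 2468, 464, 1186 and 1336 bp. In shLuc replicate 1 a second peak, of 567 bp, began 3357 bp downstream. All of these lay in the Foxq1 exon, and all were centred nearer to a start of the neighbouring A530084C06Rik on the other strand. At Foxc1, of mesoderm and eye, an intergenic peak ended 4723 bp upstream of the start in shGFP and 4687 and 4826 bp upstream in shLuc replicates 2 and 3, with widths of 834, 799 and 705 bp. At Foxh1, the SMAD partner in Nodal signalling, the nearest peak in the same 3 libraries lay 1387, 1461 and 1449 bp upstream, centred in an exon of the neighbouring Ppp1r16a.

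Foxl1, of gut mesenchyme, had a peak 2106 bp upstream of its start in shGFP and 2106 and 2147 bp upstream in shLuc replicates 2 and 3, with widths of 436, 469 and 393 bp. In shLuc replicate 1 the nearest lay 19476 bp away. At Foxs1, of pericytes and sensory neurons, a peak in an intron of Mylk2 was listed in all 4 libraries, 537 bp wide in shGFP and 293, 465 and 338 bp in shLuc, more than 18 kb from the start. Foxn1, the thymus factor, had 1 peak within 20 kb in shGFP, shLuc replicate 2 and replicate 3 each, at a different place each time (3531, 10575 and 15895 bp from the start). Of these 6 genes, Foxq1 and Foxh1 came closest to the promoter window without entering it.

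**Figure D4:**
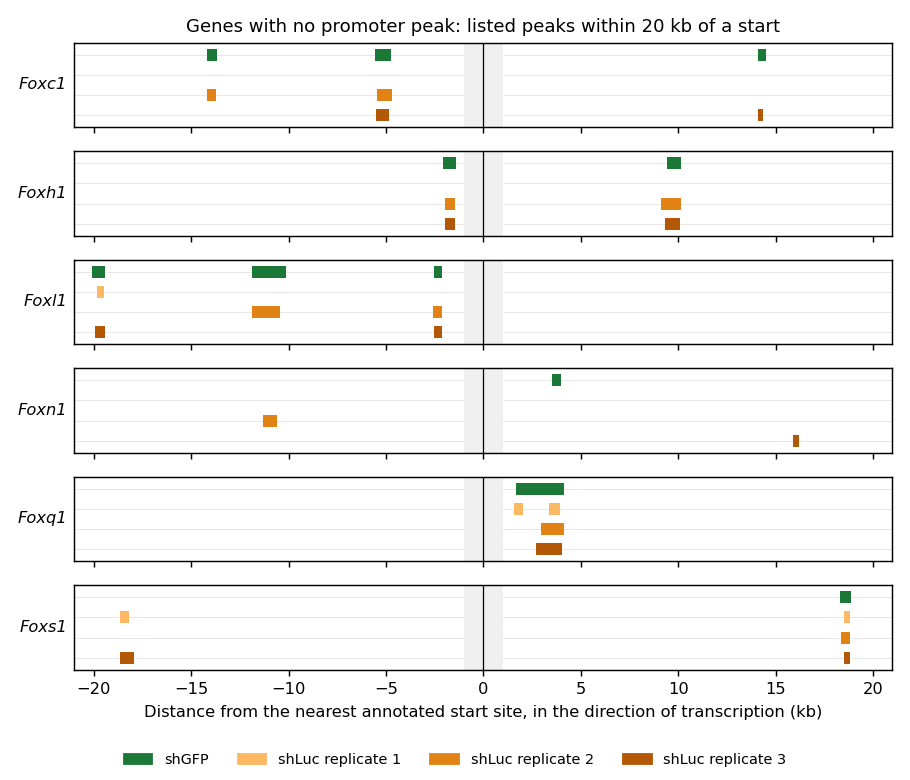
Bars mark every listed peak within 20 kb of a start of the 6 forkhead genes that had no promoter peak but a peak nearby, by distance in kb from the nearest annotated start in the direction of transcription (0 is the start, grey the window of 1 kb each side), with 1 row for each library. Foxq1 peaks lie just downstream of the window in all 4 libraries, and the Foxn1 peaks are at 3 different places in 3 libraries.

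Some members are neighbours and share peaks. Foxd2 and Foxe3 lie 17140 bp apart on chromosome 4, and 2, 0, 1 and 2 peaks were within 20 kb of both in shGFP and shLuc replicates 1, 2 and 3. Foxc2 and Foxl1 lie 11769 bp apart on chromosome 8, with 3, 1, 2 and 2 such peaks, and Foxf1 lies 31785 bp from Foxc2. Counts for these genes are thus not independent. Foxq1, Foxf2 and Foxc1, which lie near each other on chromosome 13, are at least 69682 bp apart and shared none. Among subfamilies, the 3 FoxJ and the 2 FoxK genes all had a promoter peak in every library, and neither of the 2 FoxB genes had one in any.

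The promoter peaks of forkhead genes were wide. Over all libraries there were 107, with a median width of 1097 bp, against 849 bp for the promoter peaks of all protein-coding autosomal genes. The other peaks within 20 kb, outside the promoter window of the gene and counted once per gene, numbered 146 for forkhead genes. Their median width was 548.5 bp, against 611 bp over all genes by the same count. Both sets include promoter peaks of neighbouring genes. Of the forkhead promoter peaks, 88 of 107 (82.2%) covered a start, against 90.8% over all genes with each peak counted once per gene, and this share was 97.7% for broadly used, 75.0% for ESC-used and 71.2% for lineage genes. Asking that the peak cover a start, also chosen after the values were seen, left 10 genes with it in all 4 libraries (5 broadly used, 4 lineage and 1 ESC-used) and 15 with it in none. As shares these were 24.4% and 36.6%, against 40.7% and 37.5% of all genes.

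By annotation, the centre of 57 of the 107 promoter peaks lay in an exon, of 18 in an intron and of 32 outside genes. The peak overlapped the coding sequence of its own gene in 45 of 107 (42.1%), against 57.9% of promoter peaks over all genes. For lineage genes this was 65.4% of peaks, for broadly used genes 18.6% and for ESC-used genes 25.0%. The exon structure of the groups differed, since 13 of the 29 lineage genes and 1 of the 4 ESC-used genes (Foxd3) consist of a single exon, against 0 of the 8 broadly used genes. Among the 14 single-exon forkhead genes, 20 of 22 promoter peaks (90.9%) overlapped the coding sequence, against 85.7% over all single-exon genes, and 2 genes (Foxd1 and Foxd4) had a promoter peak in all 4 libraries, against 17.9% of all single-exon genes.

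The number of distinct peaks within 20 kb of a forkhead start was 78 in shGFP and 33, 69 and 57 in shLuc replicates 1, 2 and 3. With a peak near several members counted for each of them, there were 84, 34, 73 and 62. The latter made 2.05, 0.829, 1.78 and 1.51 peaks per gene, against 1.84, 1.03, 1.81 and 1.46 for all genes. The ESC-used genes had 3.25, 0.25, 3.00 and 1.75 peaks per gene and the lineage genes 1.62, 0.690, 1.24 and 1.31. In shLuc replicate 1 the ESC-used genes had the fewest, since the only listed peak was the one at Foxp1. In the other 3 libraries they had more than the lineage genes. Of the 13, 1, 12 and 7 ESC-used peaks, 5, 1, 5 and 3 were near Foxp1, which has 22 starts. The lineage genes had a median of 1 start, so genes with unlike numbers of starts are compared here.

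CpG content was examined because CpG-rich promoters tend to be open in many cell types. A gene was called CpG-rich when, within 500 bp of its most CpG-rich start, the observed over expected number of CG dinucleotides was at least 0.6 and the share of G and C at least 50%. The median observed over expected value was 0.883 for forkhead genes with a promoter peak in all 4 libraries, 0.806 in 1 to 3 and 0.529 in none. The last were all lineage genes, a group with a median of 0.718. By the rule above 33 of 41 forkhead genes (80.5%) were CpG-rich, against 52.3% of all genes. Of these 33, 11 (33.3%) had a promoter peak in all 4 libraries, against 70.5% of CpG-rich genes over the genome, and 5 (15.2%) had one in no library, against 5.19%. The share in all 4 libraries was thus below that of CpG-rich genes at large, and the share in no library above it. This did not hold for each role. Of 21 CpG-rich lineage genes 4 (19.0%) had the peak in all 4 libraries, and of the 8 broadly used genes, all CpG-rich, 6 (75.0%) did. Of the 4 ESC-used genes, also all CpG-rich, 1 (25.0%) did. Foxa1, Foxb1, Foxb2, Foxc1 and Foxl1 were the CpG-rich genes with no promoter peak, at observed over expected values of 0.880, 0.718, 0.663, 0.942 and 0.770.

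The number of annotated starts moved with this result. A gene with more starts has more windows in which a peak can fall, and 23 forkhead genes had 1 start. Among CpG-rich genes with 1 start, 3 of 16 forkhead genes had a promoter peak in all 4 libraries, against 57.8% of all such genes. Among CpG-rich genes with 2 or more starts it was 8 of 17, against 72.0%. Both values lay below their backgrounds, but the role groups differed. Lineage genes had 3 of 14 in the former class and 1 of 7 in the latter. All 8 broadly used genes were in the latter class, where 6 of them (75.0%) had the peak. The 8 forkhead genes that were not CpG-rich were all lineage genes, and 2 of them (Foxa3 and Foxd4, 25.0%) had a promoter peak in all 4 libraries, against 14.9% of all genes that were not CpG-rich. That share rests on 2 genes, and all 4 Foxa3 peaks were centred nearer to the Sympk start, so no contrast with the CpG-rich members is drawn.

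**Figure D5:**
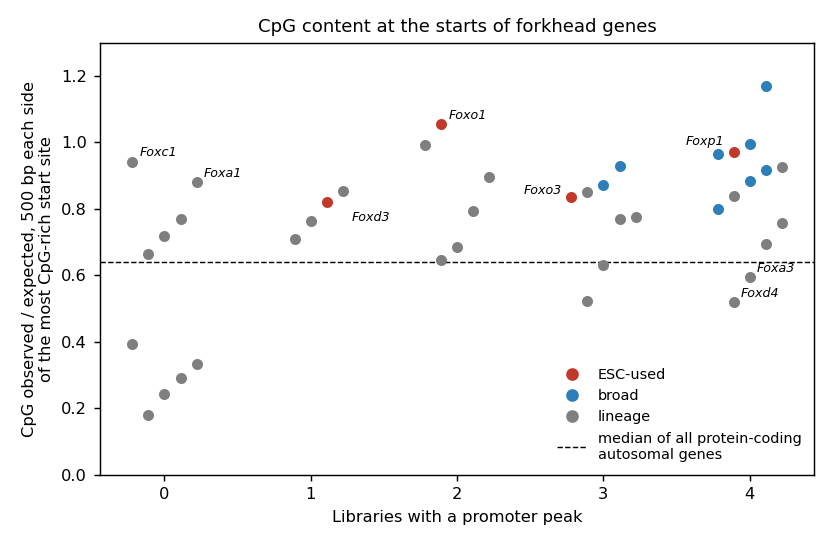
Each point is 1 forkhead gene, placed by the number of libraries with a promoter peak (points are spread sideways within a number) and by observed over expected CG dinucleotides within 500 bp of its most CpG-rich start, with colour for role. The dashed line is the median of all protein-coding autosomal genes, 0.640. The median is 0.883 for genes with all 4 libraries, 0.806 with 1 to 3 and 0.529 with none. Against this order, Foxc1 and Foxa1 lie high with no library, while Foxd4 (0.520) and Foxa3 (0.595) lie below the line with all 4 libraries.

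RefSeq promoter windows of 300 bp, from 250 bases before a start, were matched by symbol for 26 of the 41 genes (30 windows). The median number of CG dinucleotides was 22.5 in these windows, against 7 over 31365 autosomal windows of 25720 genes. That background, used for the shares below as well, was not limited to protein-coding genes, so it is not a like set. The GC box GGGCGG, searched on both strands, was in 23 of 30 windows (76.7%), against 36.0%, and CCAAT, also on both strands, in 14 (46.7%), against 37.3%. The forkhead core TGTTTAC, on both strands, was in 1 window (3.33%), against 3.71%. This window was that of Foxa1, where it reads GTAAACA in the stretch shown above. None of these letters is a measured binding site, and the GC box overlaps CG dinucleotides by its own letters.

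The windows split by peaks as well. Of the 30, 6 were touched by a peak in all 4 libraries, 13 in 1 to 3 and 11 in none, with medians of 34, 26 and 12 CG dinucleotides. Over the wider span of 1 kb each side of every start, the forkhead core was present at 12 of 41 forkhead genes (29.3%), against 40.1% of all genes. Counted over single starts, it was near 24.6% of 138 forkhead starts and 21.3% of 90310 starts, so the share by gene and the share by start lay on different sides of the background.

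The comparison of shGFP with shLuc asks how far control hairpins differ at these genes. It has 1 library against 3, for which the smallest p an exact permutation test can give is 0.25, so no test was run. Of the 13 genes with a promoter peak in all 4 libraries, 7 had a wider peak in shGFP than in all 3 shLuc libraries, against 44.2% of all such genes, and 2 had a narrower one, against 3.81%. The 7 were Foxa3, Foxd1, Foxd4, Foxj1, Foxm1, Foxn3 and Foxp1. At 4 of them (Foxd4, Foxj1, Foxm1 and Foxp1) the difference from the shLuc mean exceeded the shLuc SD. At Foxp1 and Foxn3 the widest peaks were at different starts across libraries. For Foxp1, shGFP was above the listed shLuc peaks at 99028313 (1246 against 712 and 1081 bp) but between them at 99266515 (949 against 957 and 924 bp). For Foxn3 it was above them at 99393072 (1853 against 1832 and 1760 bp) but inside their range at the shared starts (613 against 296, 608 and 617 bp). Replicate 1 of shLuc held the narrowest peak at 9 of the 13 genes (69.2%), against 74.2% of all such genes. Without replicate 3, 15 genes had a promoter peak in the remaining libraries, and at 11 of them (73.3%) the shGFP peak was wider than both shLuc peaks, against 56.2% of all such genes.

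The median width over these 13 genes was 1246 bp in shGFP and 851, 1295 and 924 bp in shLuc (mean 1023 ± 238, SD, n = 3). The difference of 223 bp was smaller than the SD, and shLuc replicate 2 was above shGFP. This rested on replicate 2, since without it the difference was 361 bp against an SD of 83.4 (n = 2). Over all 9150 protein-coding autosomal genes with a promoter peak in all 4 libraries the medians were 1005 bp and 719, 970 and 930.0 bp. Widths of both sets were smallest in shLuc replicate 1, the shortest list. With every list trimmed by width to as many peaks as the shortest one, the difference over the members was 88.3 bp against an SD of 247 (n = 3).

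The genes that act with forkhead factors were taken from a list of 57 in 5 groups. Of these, 34 (59.6%) had a promoter peak in all 4 libraries, 15 in 1 to 3 and 8 in none, against 44.0%, 22.0% and 34.0% of all genes. For insulin and AKT signalling to FoxO the counts were 9, 6 and 1 of 16. Irs1 and Irs2, the adaptors of the insulin receptor, had the peak in 1 library each, Igf1r, Akt2 and Ywhaz in all but shLuc replicate 1, and the kinase gene Akt1 in none. FoxO target genes had 7, 3 and 0 of 10, where Bcl2l11, Bnip3 and Klf2 lacked it in shLuc replicate 1 alone.

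For Foxm1 and the MuvB complex, with which it acts on cell cycle genes, the counts were 8, 3 and 0 of 11. Mybl2 lacked the peak in shLuc replicate 1, Lin37 had it in shLuc replicates 2 and 3, and Aurkb in shGFP only. Partners of the FoxK and FoxP factors had 6, 0 and 3 of 9, where Sin3a, Ogt and Mta1 had none. The partners of Foxh1 in Nodal signalling had 4, 3 and 4 of 11. Acvr2b, Smad3 and Drap1 lacked the peak in shLuc replicate 1 alone, and the ligand gene Nodal, its co-receptor Tdgf1 and its inhibitors Lefty1 and Lefty2 had none in any library. Like Foxh1 itself, each of these 4 had a listed peak within 20 kb in at least 2 libraries.

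On the X chromosome, which the rule left out, Foxo4 had a promoter peak in all 4 libraries, of 868 bp in shGFP and 854, 1103 and 507 bp in shLuc. Foxp3, the factor of regulatory T cells, had one of 829 bp in shGFP and 682, 776 and 860.0 bp in shLuc. Foxr2 had one in all but shLuc replicate 1, of 1037, 924 and 979 bp. With these 3 genes, 15 forkhead genes had a promoter peak in all 4 libraries.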

How the data were processed

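ATAC-seq peak lists of 4 libraries (1 shGFP, 3 shLuc) were analysed, grouped as in the labels. The authors deposited 1 list per library with chromosome, start and end of each peak and no score. The submitters' processing notes name bcl2fastq, Bowtie2, MACS2 and mm10. Per the study's methods, reads were aligned to mm10, the best alignment was kept with ties placed at random, and mitochondrial reads and discordant pairs were dropped, so peaks in repeated sequence may be misplaced. The MACS2 version, the peak threshold and any shift of reads for the transposase are not given in the sources used here. The lists carry no depth, and the read totals in the study's sample table are not printed here.

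Peaks were compared with GENCODE mouse release 21 on GRCm38 coordinates, counted from 1, with Python 3.11.15, numpy 2.4.6, pysam 0.24.0, samtools 1.23.1 and matplotlib 3.10.9. Distance ran from the edge of a peak to the nearest transcript start, 0 where it covered one, and the widest promoter peak was taken per library. At 500 of 500 simulated loci all promoter peaks and distances were recovered. Libraries shared 3 to 40 identical peaks per pair, so none was a copy of another. The 41 genes, their roles, the pathway genes and the markers were chosen with earlier results of these data known. Forkhead genes were named with widths per library for those with a promoter peak and nearby peaks for the rest, and pathway genes where they lacked the peak in any library. A forkhead gene and a pathway gene are counted but not reported here by name. Promoter sequences came from RefSeq (GRCm38.p6). Protein sequences were not used here. With 1 library against 3, values are set beside the shLuc SD or the share over all genes, with no test.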

Additional observations from a re-analysis of the deposited data

How the results depend on the processing

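The 13 counts and values were recomputed under 16 alternatives where they applied, 3 of them chosen after seeing the data (a peak over a start, peaks nearer another coding gene left out, and the same start in all libraries). In 136 of 142 comparisons the value stayed within 1.5 times the reported count, or within the shLuc SD for widths, and 48 were identical. Of the other 6, 3 rose and 3 fell. With starts within 5 kb, 5 forkhead genes instead of 10 had a promoter peak in no library. With the widest 50% of each list, 12 instead of 21 had a peak within 20 kb in all libraries. With the same start in all libraries, the number of ESC-used genes fell from 1 to 0.

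With every list trimmed by width to as many peaks as the shortest one, 24 forkhead genes had a promoter peak in shGFP and 17, 23 and 21 in shLuc replicates 1, 2 and 3. Dropping the shLuc libraries one at a time gave 14 to 18 genes with a promoter peak in all libraries and 10 to 12 with none. It gave 1 to 2 ESC-used genes, 21 to 32 genes with a peak within 20 kb, and 9 to 11 genes with a wider peak in shGFP than in every shLuc library. The highest were without replicate 1 for ESC-used genes (2) and for peaks within 20 kb (32), and without replicate 3 for wider peaks (11). The difference in median width ranged from 135.5 bp to 361 bp, and exceeded the shLuc SD only without replicate 2. Leaving out shGFP was not run. No paired analysis was possible because shGFP has a single library and no test was made.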
